A study of Mus musculus with 64 samples.

Results

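Plasma and weight traits were compared among F2 male mice by their genotype at D8Mit95, a microsatellite marker on Chr 8 placed at 8 cM in the deposited table. The mice were grouped by the call of this marker alone, and no trait value was used to place a mouse in a group. The marker itself was chosen with earlier results of these data known. A call was given for 392 of the 393 mice of the table, of which 27.0% were homozygous for the allele of TALLYHO/JngJ (TH/TH), 53.6% (210 mice) were heterozygous (B6/TH) and 19.4% (76 mice) were homozygous for the allele of C57BL/6J (B6/B6). All of them came from 1 intercross, in which TH males and B6 females gave the F1 hybrids that were then crossed with each other, and all were fed standard chow and bled after a fast of 4 hours. Fasting plasma and body weight were taken every 4 weeks at 5 ages, the first at 8 and the last at 24 weeks, and fat pads and carcass were weighed at the end. A group by genotype at 1 marker is mixed at all other chromosomes, where each mouse carries its own set of TH and B6 alleles. The table names no litter, cage or day for a mouse, and any sharing of these among mice of a genotype was not tested.

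Fasting glucose is held by the balance of glucose output from the liver and its uptake into tissues. Insulin from the beta cells of the pancreas lowers this output and raises uptake into muscle and fat. When tissues respond poorly to insulin, insulin in plasma is raised first, and glucose rises once the beta cells no longer keep up. TH mice are an inbred model of obesity and type 2 diabetes in which males develop high glucose, while B6 mice on chow stay lean and normoglycemic. In an F2 intercross, a marker whose genotypes differ in a trait stands for a stretch of chromosome that travels with it, and no single gene is named by such a difference.

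A 1:2:1 ratio would give 98 TH/TH, 196 B6/TH and 98 B6/B6 mice. TH/TH mice were 8 above and B6/TH mice 14 above this number, B6/B6 mice were the smallest group, and 53.8% of the alleles at the marker were TH. The departure had an exact multinomial p of 0.0329 and an adjusted p of 0.140 over the 68 markers of the table, of which 16 had an exact p under 0.05 and 7 an adjusted p under 0.05. By this p, D8Mit95 ranked 16 among the 68 markers, and each trait had a value in 364 to 384 of the mice with a call.

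Plasma glucose at 12 weeks was lower in TH/TH mice than in B6/B6 mice, and it was the single trait of the 39 that differed between the homozygous mice past the threshold, an adjusted p of 0.05. That is 1 of 39 traits called, against a background of 4.03% called among all tests of a trait at a marker of the table. In the 103 TH/TH mice the lowest glucose was 45.4 mg/dl, the median 160 mg/dl and the highest 365 mg/dl. The 204 B6/TH mice ran from 49.2 to 264 mg/dl with a median of 166 mg/dl, and the 74 B6/B6 mice from 98.6 to 473 mg/dl with a median of 172 mg/dl. The genotypes overlapped over most of their ranges, and both the lowest and the highest single value of B6/B6 mice were above those of the other genotypes. Glucose averaged 160 ± 4.13 mg/dl in TH/TH, 164 ± 2.46 mg/dl in B6/TH and 181.2 ± 5.84 mg/dl in B6/B6 mice (mean ± SEM). Taken 1 mouse against 1 mouse, the TH/TH mouse had the lower glucose in 62.1% of all pairs of a TH/TH and a B6/B6 mouse.

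**Figure D1:**
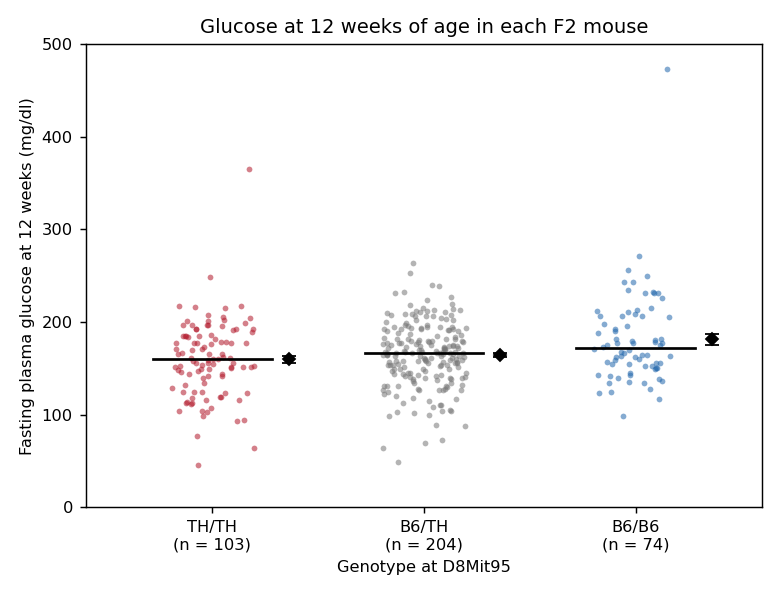
Fasting plasma glucose at 12 weeks of age (mg/dl, vertical axis) in each F2 mouse, by genotype at D8Mit95. Each point is a mouse, the horizontal line the median and the diamond the mean with its SEM; the clouds overlap, with medians of 160 mg/dl in TH/TH, 166 mg/dl in B6/TH and 172 mg/dl in B6/B6 mice, and the highest value, 473 mg/dl, in a B6/B6 mouse.

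On the log10 scale used for the test, TH/TH minus B6/B6 was -0.06 for glucose at 12 weeks (SE 0.0167, n = 381), which is a difference of -12.5% between the geometric means (95% interval of the difference -18.9% to -5.65%). The difference was -0.530 SD of the trait within genotypes (95% interval -0.829 to -0.230). It had a p of 0.00058 in a two-sided permutation test and an adjusted p of 0.0233 over the 2652 tests of 39 traits at 68 markers. The genotype accounted for 3.19% of the variance of log10 glucose at this age. Calls with lower values in TH/TH mice made up 0.566% of all tests at the 68 markers. The direction was the same under 10 alternatives, though 1 that changes only the test, such as that among the 3 genotypes, leaves the difference as it was. The call was lost in 5 of the 10. Among these were the 318 mice with every trait (adjusted p = 0.0651 by permutation) and fits with 7 markers of other chromosomes (adjusted p = 0.112 by permutation) or the other 2 markers of Chr 8 (adjusted p = 0.0755 by permutation) as covariates. In the fit with the 7 markers, the p before adjustment was lower than that without covariates. The call was also lost when mice with glucose of 300 mg/dl or more at any age were left out (-0.483 SD, adjusted p = 0.0564 by permutation). A test among the 3 genotypes gave an adjusted p of 0.0648 by permutation, and by this test 0 of 39 traits were called, against 2.38% at all markers.

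The 25th percentile of glucose at 12 weeks over all mice was 144 mg/dl and the 75th percentile 191 mg/dl. Of the TH/TH mice 30.1% were at or below the 25th percentile and 22.3% at or above the 75th. Of the B6/TH mice 25% were at or below the 25th and 23.5% at or above the 75th percentile. Of the B6/B6 mice 18.9% were at or below the 25th and 32.4% at or above the 75th percentile. TH/TH mice were therefore found more often at the low end and B6/B6 mice more often at the high end, and both ends held mice of all 3 genotypes. With mice of 300 mg/dl or more at any age left out, glucose at 12 weeks averaged 159 ± 3.75 mg/dl in 98 TH/TH, 164 ± 2.50 mg/dl in 198 B6/TH and 177 ± 4.40 mg/dl in 71 B6/B6 mice.

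Glucose at the other 4 ages did not differ past the threshold. At 8 weeks it averaged 173 ± 3.48 mg/dl in TH/TH, 177 ± 2.53 mg/dl in B6/TH and 180 ± 4.55 mg/dl in B6/B6 mice, and the geometric mean of TH/TH differed by -3.74% from that of B6/B6 (95% interval -9.41% to 2.27%, p = 0.216 by permutation). At 16 weeks the means were 169 ± 6.29, 167 ± 2.70 and 173 ± 6.84 mg/dl in TH/TH, B6/TH and B6/B6 mice (p = 0.429 by permutation). The means of the 3 genotypes at both ages lay close together beside the spread of single mice. At 20 weeks the means were 165 ± 5.47 mg/dl in TH/TH, 165 ± 3.10 mg/dl in B6/TH and 163 ± 6.09 mg/dl in B6/B6 mice (p = 0.748 by permutation). At 24 weeks glucose averaged 157 ± 6.04 mg/dl in TH/TH, 161 ± 3.69 mg/dl in B6/TH and 171 ± 7.06 mg/dl in B6/B6 mice, and the geometric means differed by -8.94% (95% interval -17.2% to 0.0912%, p = 0.0530 by permutation, adjusted p = 0.309). Of the 5 ages, 1 was called at D8Mit95, where 2.65% of the tests of glucose at all markers were called (14.1% at an unadjusted p under 0.05), and 4 of the 5 had a lower mean of log10 glucose in TH/TH mice.

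**Figure D2:**
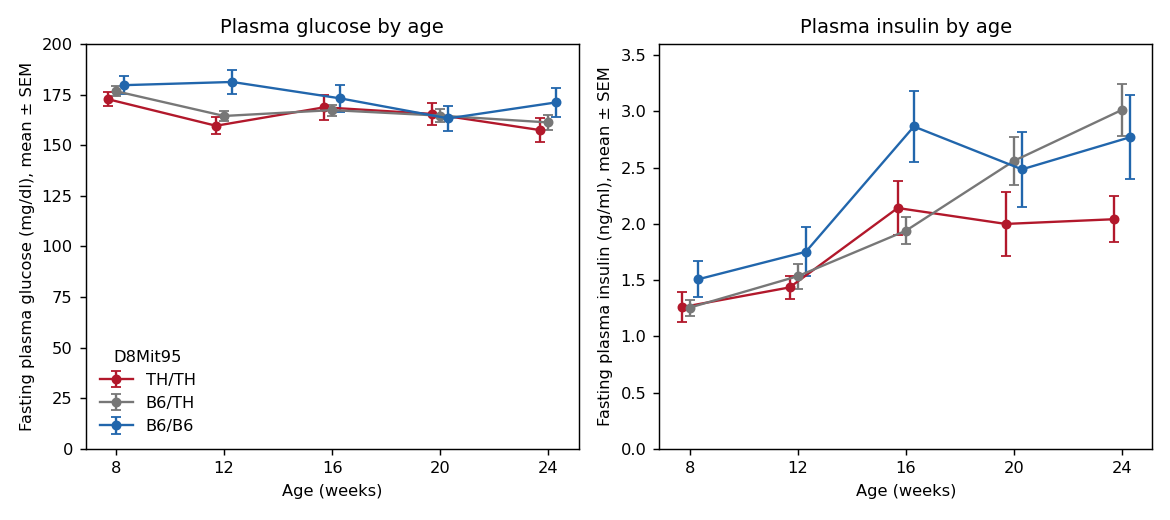
Fasting plasma glucose (left, mg/dl) and insulin (right, ng/ml) by age in weeks, as mean ± SEM of TH/TH, B6/TH and B6/B6 mice at D8Mit95. The glucose means are farthest apart at 12 weeks (160 mg/dl in TH/TH, 181.2 mg/dl in B6/B6), and mean insulin is higher at 24 than at 8 weeks in all genotypes, with TH/TH at 2.04 ng/ml and B6/B6 at 2.77 ng/ml at 24 weeks.

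The spread of glucose among mice of a genotype was wide and was larger at later ages. The coefficient of variation was 20.4% in TH/TH, 19.8% in B6/TH and 21.5% in B6/B6 mice at 8 weeks. At 24 weeks it was 38.8% in TH/TH, 32.3% in B6/TH and 35.3% in B6/B6 mice, and single mice reached 599 mg/dl in TH/TH, 511 mg/dl in B6/TH and 533 mg/dl in B6/B6. Each genotype thus held mice far above its median at the last age, and the spreads were not tested against each other.

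The course of glucose was also followed within single mice. Among mice measured at all 5 ages, glucose at 12 weeks was below that at 8 weeks in 69.1% of 97 TH/TH mice, in 62.4% of the B6/TH mice and in 50% of 68 B6/B6 mice. The mean change over these 4 weeks was -12.7 ± 4.56 mg/dl in TH/TH, -14.0 ± 3.08 mg/dl in B6/TH and 1.66 ± 6.77 mg/dl in B6/B6 mice. A lower value at 12 than at 8 weeks was thus the commoner course in TH/TH and B6/TH mice. The mean change of B6/B6 mice was smaller than its SEM. The change from 8 to 12 weeks was not tested between genotypes. From 8 to 24 weeks the change was -12.8 ± 6.57 mg/dl in TH/TH, -14.1 ± 4.29 mg/dl in B6/TH and -7.41 ± 7.28 mg/dl in B6/B6 mice.

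Whether the genotype difference itself differed between ages was tested in the mice with all 5 values, by setting each age against the mean of the other ages. For glucose at 12 weeks, TH/TH minus B6/B6 was -0.477 SD beyond the mean of the other ages (p = 0.00261 by permutation, n = 346), with an adjusted p of 0.173 over the 3536 tests of 52 derived values at 68 markers. For glucose at 20 weeks it was 0.434 SD in the opposite direction (p = 0.00626 by permutation, adjusted p = 0.249). These were the 2 lowest p of the 36 age comparisons over 6 traits, and 0 of the 36 were called, against 0.327% of such tests at all markers. Before adjustment, 2 of 36 had a p under 0.05, against 8.21%. A difference at 12 weeks that is particular to this age was therefore not shown. The mean of log10 glucose over the 5 ages was -0.310 SD in TH/TH relative to B6/B6 mice (p = 0.0518 by permutation, adjusted p = 0.518).

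Plasma insulin, the hormone that drives glucose into muscle and fat, had a lower geometric mean in TH/TH than in B6/B6 mice at all 5 ages, and no age passed the threshold. At 8 weeks insulin averaged 1.26 ± 0.135 ng/ml in TH/TH, 1.26 ± 0.0720 ng/ml in B6/TH and 1.51 ± 0.159 ng/ml in B6/B6 mice (p = 0.116 by permutation). At 12 weeks, the age of the glucose difference, it averaged 1.44 ± 0.1002 ng/ml in TH/TH, 1.53 ± 0.110 ng/ml in B6/TH and 1.75 ± 0.219 ng/ml in B6/B6 mice. The geometric means at 12 weeks were closer, 1.15 ng/ml in TH/TH and 1.18 ng/ml in B6/B6, a difference of -2.34% (95% interval -24.2% to 25.8%, p = 0.857 by permutation). The interval is wide in both directions. The lowest insulin of a B6/TH mouse at 8 weeks was recorded as 0 ng/ml, and this value has no logarithm and was left out of the test.

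At 16 weeks insulin ran from 0.07 to 15.03 ng/ml with a median of 1.39 ng/ml in 103 TH/TH mice, from 0.07 to 8.91 ng/ml with a median of 1.43 ng/ml in 203 B6/TH mice and from 0.15 to 12.3 ng/ml with a median of 1.77 ng/ml in 74 B6/B6 mice. The ranges overlapped almost wholly, and 24.3% of TH/TH mice, against 33.8% of B6/B6 mice, were at or above the 75th percentile of all mice. The means were 2.14 ± 0.240 ng/ml in TH/TH, 1.94 ± 0.121 ng/ml in B6/TH and 2.87 ± 0.315 ng/ml in B6/B6 mice, and the geometric means of TH/TH and B6/B6 differed by -31.5% (95% interval -49.1% to -7.84%). This had a p of 0.0124 by permutation and an adjusted p of 0.150.

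At 20 weeks the 3 genotypes averaged 2.00 ± 0.285, 2.56 ± 0.210 and 2.49 ± 0.337 ng/ml in TH/TH, B6/TH and B6/B6 mice (p = 0.554 by permutation). The medians at 20 weeks stood the other way between the homozygous mice, with 1.49 ng/ml in TH/TH and 1.21 ng/ml in B6/B6. At 24 weeks insulin ran from 0.06 to 12.0 ng/ml in TH/TH mice with a median of 1.41 ng/ml, from 0.15 to 24.0 ng/ml in B6/TH mice with a median of 1.98 ng/ml and from 0.15 to 22.2 ng/ml in B6/B6 mice with a median of 1.76 ng/ml. B6/TH mice had the highest median at this age. The geometric mean was 1.29 ng/ml in TH/TH, 1.87 ng/ml in B6/TH and 1.79 ng/ml in B6/B6 mice, so that TH/TH differed by -28.2% from B6/B6 (95% interval -47.2% to -2.23%, p = 0.0357 by permutation, adjusted p = 0.256). Insulin had 0 of 5 ages called and 2 of 5 at an unadjusted p under 0.05, against 0.882% and 9.41% of the tests of insulin at all markers. With body weight at the same age as a covariate, the difference at 16 weeks was -23.4% (95% interval -41.4% to 0.335%) and that at 24 weeks -21.7% (95% interval -40.5% to 3.15%).

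Insulin was higher on average at 24 than at 8 weeks in all 3 genotypes. In mice with all 5 values the mean change was 0.795 ± 0.220 ng/ml from 8 to 24 weeks in 95 TH/TH, 1.70 ± 0.217 ng/ml in 183 B6/TH and 1.23 ± 0.356 ng/ml in 69 B6/B6 mice. Week 24 was above week 8 in 65 of 95 TH/TH, 139 of 183 B6/TH and 48 of 69 B6/B6 mice. The gain on the log10 scale did not differ past the threshold between TH/TH and B6/B6 mice (-0.0867 SD, p = 0.582 by permutation). The mean of log10 insulin over the ages was -0.340 SD in TH/TH relative to B6/B6 mice (p = 0.0328 by permutation, adjusted p = 0.450).

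Glucose and insulin were then put together in 1 value per mouse. The product of the 2, which is high when glucose stays up despite much insulin, was -0.377 SD at 16 weeks and -0.383 SD at 24 weeks in TH/TH relative to B6/B6 mice (p = 0.0136 and 0.0138 by permutation, adjusted p = 0.342 and 0.343). At 12 weeks it was -0.182 SD (p = 0.231 by permutation). Insulin over glucose was 0.117 SD at 12 weeks (p = 0.443 by permutation) and -0.361 SD at 16 weeks (p = 0.0179 by permutation, adjusted p = 0.367). Of the 10 combined values 0 were called, against 0.147% at all markers, and 3 had an unadjusted p under 0.05, against 10%.

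Within a genotype, mice with more insulin tended to have more glucose. All 15 correlations of log10 glucose with log10 insulin, 3 genotypes at 5 ages, were positive, with Pearson's r of 0.0635 to 0.456 and Spearman's rho of 0.0449 to 0.508. By permutation 8 of the 15 had an adjusted p under 0.05 for r and 7 for rho. At 12 weeks r was 0.294 in TH/TH (rho 0.331, adjusted p = 0.0102 for r and 0.00234 for rho by permutation), 0.203 in B6/TH (rho 0.256, adjusted p = 0.0119 and 0.00116 by permutation) and 0.307 in B6/B6 mice (rho 0.350, adjusted p = 0.0227 and 0.00580 by permutation). Without the 2 mice farthest from the median insulin these were 0.305, 0.225 and 0.306 in TH/TH, B6/TH and B6/B6 mice. The r of 0.456 was that of TH/TH mice at 20 weeks, against 0.347 in B6/TH and 0.219 in B6/B6 mice, and differences between genotypes in r were not tested.

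Glucose of 300 mg/dl or more at 1 or more ages was reached by 5 TH/TH mice (4.72%, exact 95% interval 1.55% to 10.7%), 6 of 207 B6/TH mice (2.90%, 1.07% to 6.20%) and 3 of 76 B6/B6 mice (3.95%, 0.822% to 11.1%). The shares of TH/TH and B6/B6 mice had a two-sided Fisher's exact p of 1. At 250 mg/dl it was 9 TH/TH (8.49%), 26 of 207 B6/TH (12.6%) and 11 of 76 B6/B6 mice (14.5%), with a two-sided Fisher's exact p of 0.234. The counts are too few to tell a moderate difference in overt hyperglycemia from none. Glucose at 24 weeks was missing in 4 TH/TH (3.77%), 11 B6/TH (5.24%) and 3 B6/B6 mice (3.95%).

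Body weight had a lower mean in TH/TH than in B6/B6 mice at each age, and no age passed the threshold. At 8 weeks TH/TH mice weighed 20.9 to 36.9 g with a median of 28.2 g, B6/TH mice 21.3 to 39.8 g with a median of 29.3 g and B6/B6 mice 22.2 to 39.1 g with a median of 29.4 g. The ranges overlapped nearly in full, and the medians of B6/TH and B6/B6 mice lay close together. The means were 28.6 ± 0.273 g in TH/TH, 29.3 ± 0.208 g in B6/TH and 29.6 ± 0.346 g in B6/B6 mice, a difference of -1.02 g between TH/TH and B6/B6 (95% interval -1.89 to -0.145 g, p = 0.0219 by permutation, adjusted p = 0.199). The difference was -1.09 g at 12 weeks (95% interval -2.21 to 0.0230 g) and -1.18 g at 16 weeks (95% interval -2.51 to 0.150 g), and in SD it was -0.347, -0.292, -0.265, -0.231 and -0.173 at the 5 ages, youngest first. At 24 weeks the medians stood the other way from the means, with 38.7 g in TH/TH and 38.5 g in B6/B6 mice. Carcass weight averaged 32.7 ± 0.392 g in TH/TH, 33.6 ± 0.289 g in B6/TH and 33.8 ± 0.477 g in B6/B6 mice (-1.13 g, 95% interval -2.35 to 0.0839 g, p = 0.0687 by permutation). With body weight at 12 weeks as a covariate the glucose difference at that age was -12.05% (95% interval -18.6% to -5.03%, p = 0.000990 by permutation).

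No fat depot differed past the threshold. The 5 regional pads together weighed 3.54 ± 0.173 g in TH/TH, 3.83 ± 0.124 g in B6/TH and 3.65 ± 0.214 g in B6/B6 mice, a difference of -0.0599 SD (95% interval -0.362 to 0.242). On the scale of the test, log10 for the subscapular pad and g for the others, 3 of the 5 pads had a lower and 2 a higher mean in TH/TH than in B6/B6 mice, while in g the subscapular pad also had a lower mean in TH/TH mice (0.475 ± 0.0277 g, against 0.515 ± 0.0518 g in B6/B6 mice). The differences on the scale of the test ran from -0.175 SD in the retroperitoneal pad to 0.0695 SD in the epididymal pad (p of 0.255 to 0.940 by permutation). Brown fat, the tissue that burns fuel for heat, differed by 0.179 SD between TH/TH and B6/B6 mice (95% interval -0.124 to 0.483, p = 0.244 by permutation), in a unit that the sources used here do not state.

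Plasma triglyceride, carried in lipoproteins from liver and gut, was the one plasma trait with a higher mean in TH/TH mice at all 5 ages. At 12 weeks it ran from 70.7 to 353 mg/dl with a median of 169 mg/dl in TH/TH, from 44.0 to 357 mg/dl with a median of 161 mg/dl in B6/TH and from 53.7 to 303 mg/dl with a median of 151.5 mg/dl in B6/B6 mice. The medians followed the number of TH alleles and the ranges overlapped. The means were 175 ± 6.19 mg/dl in TH/TH, 165 ± 4.02 mg/dl in B6/TH and 157 ± 6.59 mg/dl in B6/B6 mice, a difference of 17.8 mg/dl (95% interval 0.149 to 35.4 mg/dl, p = 0.0479 by permutation, adjusted p = 0.297). At the other ages the difference ran from 0.00156 SD at 8 weeks to 0.185 SD at 20 weeks. At 24 weeks D8Mit242, another marker of Chr 8, had the lowest triglyceride p of all markers of the table. There TH/TH mice were 40.3 mg/dl above B6/B6 mice (adjusted p = 0.00914 by permutation), against 11.5 mg/dl at D8Mit95. The study names D8Mit242 as the closest marker to a triglyceride locus at this age. D8Mit95 and D8Mit242 had the same genotype in 58.2% of 390 mice. How much of the triglyceride difference at D8Mit95 goes with D8Mit242 was not tested. At 12 weeks triglyceride and glucose therefore stood on opposite sides between the homozygous mice, with the glucose difference past the threshold and the triglyceride difference not.

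Total cholesterol had a lower mean in TH/TH than in B6/B6 mice at all 5 ages, with differences of -0.0859 SD at 20 weeks to -0.249 SD at 24 weeks and no p under 0.103. Its mean over the 5 ages was -0.215 mmol/l in TH/TH relative to B6/B6 mice (95% interval -0.391 to -0.0378 mmol/l, p = 0.0176 by permutation, adjusted p = 0.367, n = 345). Free fatty acids, the fuel that fat cells release in fasting, had a lower mean in TH/TH mice at 3 ages and a higher mean at 2, with differences between -0.176 and 0.162 SD. Their unit is not stated in the sources used here, and the lowest of their values at 24 weeks, in a B6/TH mouse, was -0.01.

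Over all 39 traits, TH/TH mice had the lower mean in 28 and the higher mean in 11 on the scale of the test, and the subscapular pad was the one trait whose sign differed between log10 and g. Before adjustment 5 of the 39 traits had a p under 0.05, against 16.4% of all tests at the 68 markers. Many of these traits are measures of the same mice at successive ages, so the 28 are not independent of each other.

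**Figure D3:**
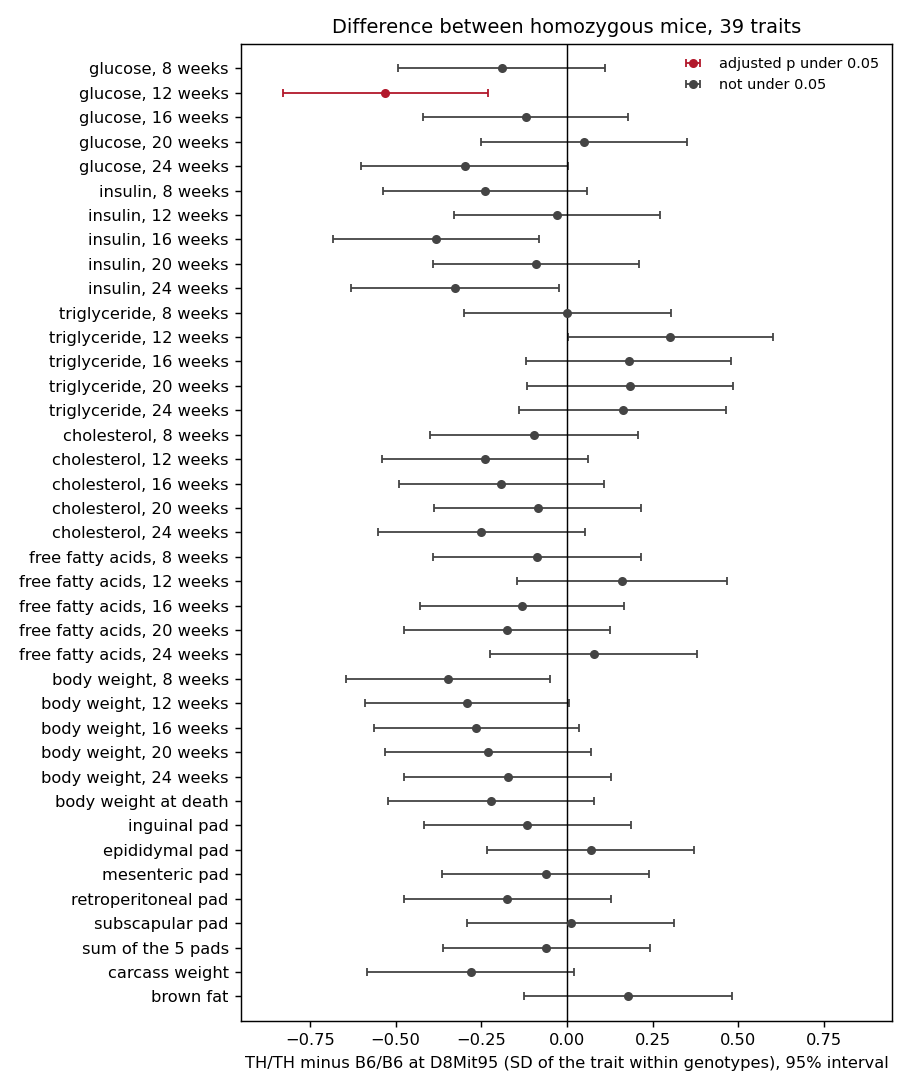
TH/TH minus B6/B6 at D8Mit95 for 39 traits, in SD of the trait within genotypes (horizontal axis), with 95% intervals; traits run down the page and glucose, insulin, the subscapular pad and brown fat are on the log10 scale. Glucose at 12 weeks, at -0.530 SD, is the one trait with an adjusted p under 0.05, and the 5 triglyceride values lie at or above 0.

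Heterozygous mice were set against the midpoint of the homozygous mice. Their mean lay between the homozygous means in 21 of the 39 traits, and no trait departed from the midpoint past the threshold, as at all markers (0%). For glucose at 12 weeks, the B6/TH geometric mean of 160 mg/dl was nearer to the 154 mg/dl of TH/TH than to the 176 mg/dl of B6/B6 mice, with a deviation of -0.01 on the log10 scale (95% interval -0.03 to 0.01, p = 0.307 by permutation). Insulin at 24 weeks had the lowest p of a deviation, with B6/TH mice above the midpoint by 0.09 on the log10 scale (p = 0.0490 by permutation, adjusted p = 0.836). It was 1 of 39 traits at an unadjusted p under 0.05, against 5.2% of all such tests.

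Among the 68 markers of the table, D8Mit95 had the lowest p for glucose at 12 weeks. It had been chosen with earlier results of these data known, so this rank is no separate support. Adjusted p was under 0.05 at 3 of 68 markers (4.41%). D7Mit231 on Chr 7 followed, with TH/TH at -12.2% relative to B6/B6 (95% interval -18.5% to -5.37%, adjusted p = 0.0246 by permutation), and D13Mit205 on Chr 13 had TH/TH at 12.7% relative to B6/B6 (95% interval 4.55% to 21.4%, adjusted p = 0.0472 by permutation). TH/TH mice had the lower mean at 28 of the 68 markers. For glucose at 8, 16, 20 and 24 weeks D8Mit95 ranked 22, 37, 59 and 11 by p among the 68 markers. D4Mit208 on Chr 4 came first at 8, 20 and 24 weeks with higher glucose in TH/TH mice (by 15.7%, 13.5% and 19.9%). The study's own single-locus scan, by composite interval mapping with genome-wide thresholds, places its significant glucose locus near D4Mit312 on Chr 4 at 24 weeks. That scan lists no glucose locus on Chr 8 or at 12 weeks. For insulin, taken by rising age, D8Mit95 ranked 6, 59, 4, 45 and 5.

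**Figure D4:**
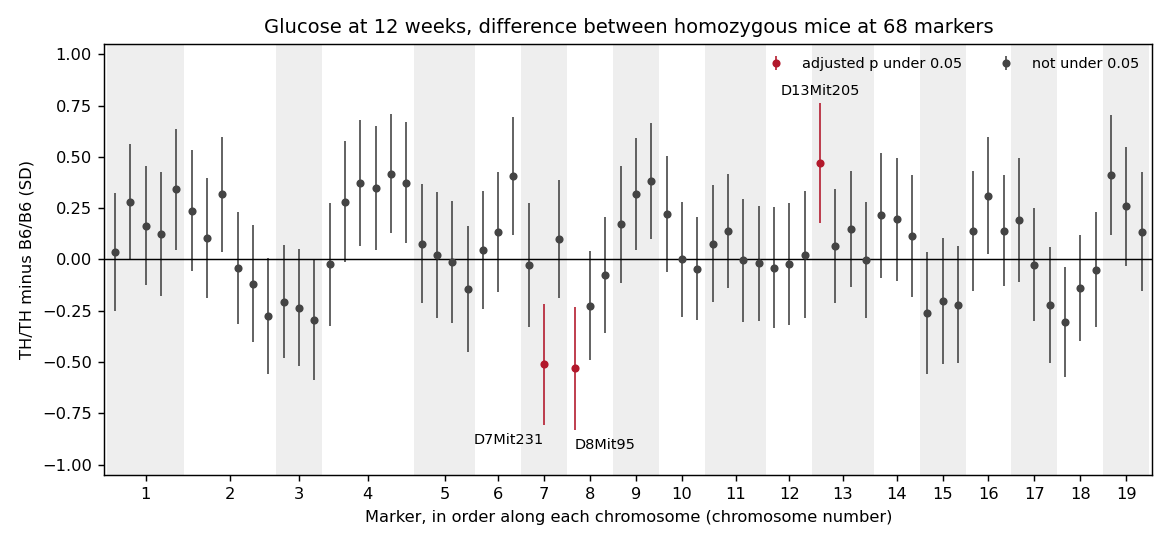
TH/TH minus B6/B6 for log10 glucose at 12 weeks at each of 68 markers, in SD within genotypes (vertical axis) with 95% intervals, in order along each chromosome (horizontal axis, grey bands mark odd-numbered chromosomes). D8Mit95 and D7Mit231 lie lowest, at -0.530 and -0.512 SD, and D13Mit205 highest, at 0.469 SD; these 3 have an adjusted p under 0.05.

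Chr 8 held 2 more markers, D8Mit339 at 23 cM and D8Mit242 at 47 cM in the deposited table. The estimated recombinant share was 18.03% between D8Mit95 and D8Mit339 and 28.4% between D8Mit95 and D8Mit242, and 71.3% and 58.2% of 390 mice had the same genotype at both markers of the pair. Opposite homozygotes were 16 and 23 of these mice. Among the B6/TH mice at D8Mit95, 13 were TH/TH and 58 were B6/B6 at D8Mit339, while 28 were TH/TH and 49 were B6/B6 at D8Mit242. The exchange toward D8Mit339 was thus lopsided, and D8Mit339 itself departed from 1:2:1 with 104 TH/TH, 162 B6/TH and 124 B6/B6 mice (exact multinomial p = 0.00139, adjusted p = 0.0189). The part of marker calls in these counts was not tested.

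The glucose difference at 12 weeks was smaller at the other markers of Chr 8. In the 379 mice with all 3 calls, TH/TH relative to B6/B6 stood at -12.5% at D8Mit95, -5.63% at D8Mit339 (95% interval -11.8% to 1.00%, p = 0.0932 by permutation) and -1.96% at D8Mit242 (95% interval -8.83% to 5.43%, p = 0.592 by permutation). With all 3 markers in 1 model, the difference was -13.8% at D8Mit95 (95% interval -22.0% to -4.70%, p = 0.00415 by permutation), 0.142% at D8Mit339 (95% interval -9.65% to 10.99%) and 3.15% at D8Mit242 (95% interval -5.43% to 12.5%). The size of the difference at D8Mit95 was thus close to that without its neighbours in the model, with a wider interval, and the call was lost (adjusted p = 0.0755 by permutation over all traits and markers). Among the combined genotypes, mice TH/TH at both D8Mit95 and D8Mit339 averaged 159 ± 3.90 mg/dl (n = 82), and mice B6/B6 at both averaged 182 ± 7.06 mg/dl (n = 56). Where the markers disagreed, mice TH/TH at D8Mit95 and B6/B6 at D8Mit339 averaged 156 ± 30.5 mg/dl (n = 8), and mice B6/B6 at D8Mit95 and TH/TH at D8Mit339 averaged 170 ± 20.1 mg/dl (n = 8), too few to set apart.

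At 16 weeks the same model gave other values along the chromosome. TH/TH relative to B6/B6 was -0.894% at D8Mit95, -10.5% at D8Mit339 (95% interval -19.3% to -0.729%) and 14.3% at D8Mit242 (95% interval 4.55% to 24.9%, p = 0.00309 by permutation, adjusted p = 0.0830 over all tests of glucose and insulin at the 3 Chr 8 markers alone and together), and this did not pass the threshold. For insulin at 24 weeks D8Mit95 stood at -42.9% with its neighbours in the model (95% interval -61.5% to -15.3%, p = 0.00565 by permutation), against -28.2% alone. Adjusted over all traits and markers, the fit with both neighbours as covariates had a p of 0.0960 by permutation for insulin at 24 weeks and was not called. The signs of the linked markers were opposite in several of these fits, and a test of one marker's difference against another's was not made.

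**Figure D5:**
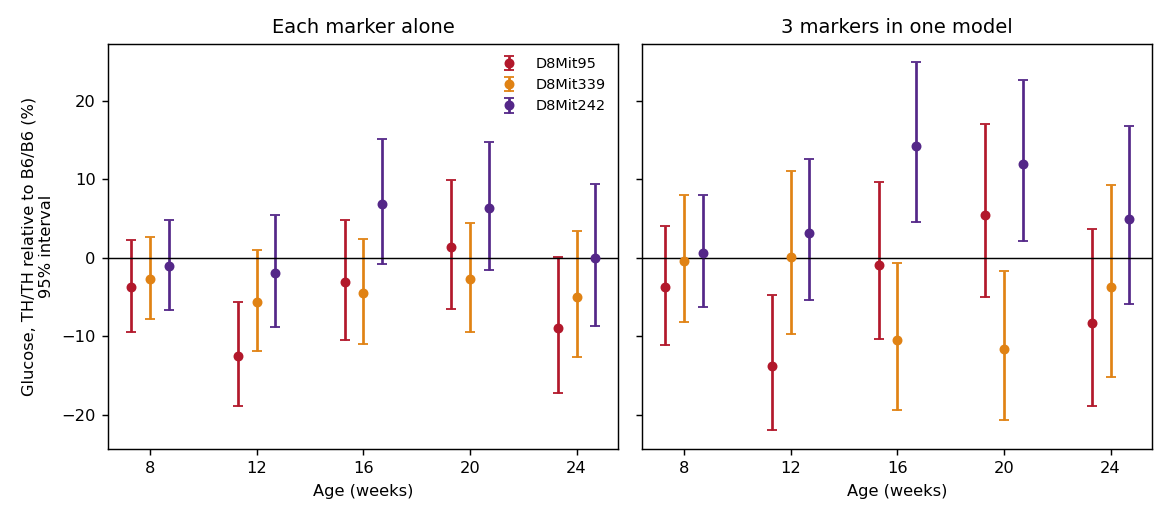
Glucose of TH/TH relative to B6/B6 mice (%, vertical axis) with 95% intervals at 5 ages, for D8Mit95, D8Mit339 and D8Mit242 on Chr 8, each marker alone (left) and all 3 in 1 model (right). At 12 weeks D8Mit95 is at -12.5% alone and -13.8% in the joint model, while the other markers lie nearer to 0.

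Pairs of D8Mit95 with each marker of the other chromosomes were tested for an interaction beyond the separate effects of both. Of 130 tests of mean log10 glucose and mean log10 insulin over the 5 ages, 0 were called (0%). Before adjustment 7 of the 130 had a p under 0.05, where about 5% would with no interaction. The lowest p was that of D17Mit143 on Chr 17 with insulin (p = 0.00427 by permutation, adjusted p = 0.396, n = 343). For glucose at 12 weeks 0 of 65 pairs were called. The smallest of the 9 combined genotype classes over these pairs held 6 mice, so that interactions of moderate size could be missed.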

How the data were processed

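The authors measured traits in fasting plasma with commercial assays (mg/dl for glucose and triglyceride, ng/ml for insulin, mmol/l for total cholesterol) and by weighing (g), and deposited them in other units than counts or signals, beside genotype calls at 68 autosomal microsatellite markers. Of the deposited columns, 39 traits were used and 12 columns of logs of them were not. No mouse number is in the table used here, so the 64 arrays of 16 of these mice could not be matched to genotypes and were not used.

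Glucose, insulin, the subscapular pad and brown fat were taken as log10. TH/TH minus B6/B6 was taken from a linear model with the 3 genotypes as groups, with heterozygous mice in the estimate of the spread, and tested with 100000 shuffles of the trait over the mice (two-sided, studentized difference). Benjamini-Hochberg adjustment ran over all 39 traits at all 68 markers, 2652 tests, and derived values over 3536 tests. A trait was called at an adjusted p under 0.05. SEM is the precision of a mean over mice. A permutation p compares the observed value with those after shuffling over mice. Glucose and insulin at 5 ages were always named, with the 5 other traits of lowest p and, for a named trait, the marker of lowest p. The marker, traits and tests were chosen with earlier results of these data known. Tested on simulated data for glucose at 12 weeks (381 mice, 200 traits for each size), an unadjusted p under 0.05 was had by 5% of traits with no difference, 47.5% at 0.3 SD and 90% at 0.5 SD. The share that would be called at an adjusted p under 0.05 was not simulated. Alternatives were other scales, other sets of mice, other tests and covariates. Versions were matplotlib 3.10.9, pandas 2.3.3, scipy 1.17.1, numpy 2.4.6 and python 3.11.15.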

Additional observations from a re-analysis of the deposited data

How the results depend on the processing

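Glucose at 12 weeks was lower in TH/TH mice under all 10 alternatives, between -0.583 and -0.483 SD, with adjusted p of 0.0235 to 0.112 by permutation. An alternative that changes only the test, such as that among the 3 genotypes, leaves this difference as it was and cannot turn its direction. The call was kept in 5 of 10. It was lost, so that 0 traits and 0 ages of glucose were called in place of 1, without the mice that reached 300 mg/dl (378 mice with a call, adjusted permutation p = 0.0564), in the 318 mice with every trait (0.0651), with the test among the 3 genotypes (0.0648) and with 7 markers that the study names on other chromosomes as covariates (360 to 380 mice, 0.112, p = 0.000300 before adjustment). D11Mit132, which the study also names, was not among these 7 markers. With the 2 other Chr 8 markers as covariates, 0 ages of glucose were called (0.0755). The cause was not tested. In 4 cases an uncalled difference turned. Glucose at 20 weeks was -0.0141 SD with the 7 markers of the study. Insulin at 12 and 20 weeks was 0.113 and 0.0411 SD with body weight. With the Chr 8 markers, insulin at 20 weeks was 0.0982 SD. The share of TH/TH minus that of B6/B6 mice with high glucose was 0.770 points at 300 mg/dl and -5.98 points at 250 mg/dl. All other values, 134 for single traits and 26 for counts, kept their direction and side of the threshold. Chosen after the data were seen were leaving out mice of 300 mg/dl for comparisons of ages, combined values and heterozygotes, and pairs with glucose at 12 weeks. Mouse number as a block and the arrays by genotype were not run, since no mouse number is in the table used here. No paired analysis was possible because mice of different genotypes share no replicate number.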
